A study of Homo sapiens with 6 samples.

Results

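The genes described here are 10 regulators and products of the osteoblast lineage: RUNX2, SP7, DLX3, DLX5, MSX2, FGFR1, SPP1, IBSP, ALPL and BGLAP. They were chosen by name, because the cells come from an osteosarcoma, a bone tumour, and all 10 symbols were found among the 55882 rows of the deposited count table. The samples were 3 libraries of p53 KO cells and 3 libraries of p53 WT cells. Both groups are DIvA cells, a U2OS-derived human osteosarcoma line that carries an inducible AsiSI restriction enzyme. Every culture was given 300 nM 4-OHT (4-hydroxytamoxifen, which brings the enzyme to the nucleus and so starts DNA cutting) for 5 h before polyadenylated RNA was sequenced. Untreated cells were not analysed here. The labels do not give the clone or clones behind the p53 KO cells, and they do not call the replicates separate cultures. The p-values below therefore measure the spread between these libraries, which may be technical, and a clone difference cannot be told apart from the loss of p53.

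Osteoblasts arise from mesenchymal progenitors in steps set by transcription factors. RUNX2 commits the cell to the lineage, SP7 (osterix) acts after it, and the homeodomain factors DLX3, DLX5 and MSX2 adjust the programme. FGFR1, a receptor tyrosine kinase for fibroblast growth factors, signals in the same progenitors. The mature cell deposits matrix and mineral. SPP1 (osteopontin) and IBSP (bone sialoprotein) are acidic, integrin-binding matrix proteins, ALPL (tissue-nonspecific alkaline phosphatase) removes the mineral inhibitor pyrophosphate, and BGLAP (osteocalcin) is a late, vitamin K-dependent matrix protein.

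The members divided into 4 kinds of result. SPP1, ALPL and RUNX2 fell in p53 KO cells, FGFR1 and DLX3 rose, MSX2 and BGLAP did not pass the test, and SP7, IBSP and DLX5 had too few counts to be tested. Of the 7 members tested, 5 were called, 2 of them higher and 3 lower. DLX3 passed the filter on low counts only through p53 KO libraries, where it is high, and supports nothing in these counts. Of the 6 others tested, 4 were called, with FGFR1 the 1 called higher. A call is an adjusted p under 0.05 by the edgeR quasi-likelihood test over 22352 genes, where 26.5% of all genes were called, 12.1% higher and 14.4% lower. The groups did not overlap in the same 5 members, 4 without DLX3, against 40.8% of all tested genes, 19.4% with p53 KO higher and 21.4% with p53 KO lower. The median log2 fold change (p53 KO over p53 WT) was 0.03 over the 7 members, DLX3 included, and 0.0052 over all genes tested. That 0.03 is the value of MSX2, and it is the middle value only because DLX3 is counted. Over the 6 others the middle lies lower, between RUNX2 (-0.69) and MSX2 (0.03).

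The promoters of RUNX2, SPP1, ALPL, IBSP and BGLAP are shown because these are genes that RUNX2 is known to act on in bone, RUNX2 itself included. RefSeq on GRCh38.p14 gave a promoter entry for 6 of the 10 members, from 250 bases before the start site to 50 after it. SP7, DLX3, DLX5 and FGFR1 had none. Capitals mark the RUNX core, searched as TGTGGT or, on the other strand, ACCACA. The sequences run 5′ to 3′ on the plus strand, at chr6:45328080-45328379 for RUNX2, chr4:87975464-87975763 for SPP1, chr1:21508734-21509033 for ALPL, chr4:87799304-87799603 for IBSP and chr1:156241934-156242233 for BGLAP.
RUNX2: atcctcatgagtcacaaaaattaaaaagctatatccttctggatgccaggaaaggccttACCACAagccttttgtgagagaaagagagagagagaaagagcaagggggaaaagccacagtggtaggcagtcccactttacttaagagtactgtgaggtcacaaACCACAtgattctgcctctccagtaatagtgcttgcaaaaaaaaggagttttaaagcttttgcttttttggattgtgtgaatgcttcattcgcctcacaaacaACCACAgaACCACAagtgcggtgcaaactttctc
SPP1: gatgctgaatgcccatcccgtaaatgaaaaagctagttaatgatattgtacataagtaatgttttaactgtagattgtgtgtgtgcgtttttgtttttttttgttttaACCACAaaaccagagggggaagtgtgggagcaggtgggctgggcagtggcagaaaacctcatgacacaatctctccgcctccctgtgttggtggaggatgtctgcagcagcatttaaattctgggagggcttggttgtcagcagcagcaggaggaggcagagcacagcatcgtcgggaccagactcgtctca
ALPL: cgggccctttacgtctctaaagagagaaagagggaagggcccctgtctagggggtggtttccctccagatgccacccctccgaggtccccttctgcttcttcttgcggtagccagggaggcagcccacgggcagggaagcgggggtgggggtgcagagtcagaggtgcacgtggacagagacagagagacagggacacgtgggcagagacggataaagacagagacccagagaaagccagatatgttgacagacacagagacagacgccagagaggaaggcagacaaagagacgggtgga
IBSP: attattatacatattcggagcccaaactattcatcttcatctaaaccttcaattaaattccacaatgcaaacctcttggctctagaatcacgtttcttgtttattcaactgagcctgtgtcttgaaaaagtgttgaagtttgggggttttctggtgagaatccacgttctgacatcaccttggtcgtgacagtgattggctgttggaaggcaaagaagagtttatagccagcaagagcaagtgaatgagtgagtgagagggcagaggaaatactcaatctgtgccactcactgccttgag
BGLAP: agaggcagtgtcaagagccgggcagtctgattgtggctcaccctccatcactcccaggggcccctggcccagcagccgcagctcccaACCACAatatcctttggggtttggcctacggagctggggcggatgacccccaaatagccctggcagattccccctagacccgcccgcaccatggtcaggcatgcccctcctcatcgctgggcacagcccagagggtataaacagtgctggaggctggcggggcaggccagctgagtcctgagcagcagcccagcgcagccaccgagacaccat

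The RUNX core occurred 4 times in the RUNX2 promoter, with first bases at -191, -87, 17 and 25 relative to the start site. It occurred 1 time in the SPP1 promoter, at -142, and 1 time in the BGLAP promoter, at -163. These exact letters were found 0 times in the ALPL and IBSP windows, and other forms of the RUNX site were not searched. Of 27305 RefSeq promoters of the same length, 13.1% held at least 1 copy. The DLX and MSX homeodomain core, TAATTG or CAATTA, was matched 1 time in the member windows, in IBSP at -201, and was in 7.6% of all promoters. The p53 half-site consensus was also matched 1 time, in the BGLAP window at -67, and in 6.5% of all promoters. Such matches describe letters and are not binding sites. In the authors' deposited table, 9 members were listed and 0 of them were marked as meeting the p53 cistrome, while 124 of its 35987 genes were, CDKN1A among them.

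The knockout was checked on p53 targets first. CDKN1A, the cyclin-dependent kinase inhibitor induced by p53, had 49.1, 41.8 and 46.5 CPM (counts per 1000000, on TMM-scaled library sizes) in p53 KO libraries, against 572, 521 and 533 CPM in p53 WT libraries. MDM2, the ubiquitin ligase that p53 induces, had 68.9, 60.9 and 43.0 CPM in p53 KO libraries, against 187, 242 and 234 CPM in p53 WT libraries. Total counts were 20393909 to 72621732 in p53 KO libraries and 24347609 to 79767519 in p53 WT libraries, and replicate 3 was the shallowest of each group.

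RUNX2, the runt-domain factor that commits cells to the osteoblast lineage, was lower in p53 KO cells. It had 6.09, 9.28 and 6.42 CPM in p53 KO replicates 1, 2 and 3, against 11.5, 10.4 and 13.2 CPM in p53 WT replicates 1, 2 and 3. Every p53 KO library lay under every p53 WT library, but p53 KO replicate 2 came close to p53 WT replicate 2. The log2 fold change was -0.69 (SE 0.21, 95% interval -1.13 to -0.24, adjusted p = 0.0234 by edgeR's quasi-likelihood test). The call was lost without p53 KO replicate 1 (-0.56), p53 KO replicate 3 (-0.60) or p53 WT replicate 3 (-0.60), with adjusted p of 0.092, 0.0545 and 0.0975 by edgeR. RUNX2 lies on chromosome 6, and in GENCODE 29 the gene SUPT3H overlaps it on the opposite strand without sharing exonic bases.

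SP7 (osterix), the zinc-finger factor that acts after RUNX2, had 0 counts in all 6 libraries. Allowing 3 counts where 0 were seen, the upper limit was 0.0405 to 0.15 CPM in p53 KO libraries and 0.0381 to 0.123 CPM in p53 WT libraries. These floors cover counting error only. In the authors' deposited table SP7 had a mean of 0.841 normalised counts, and 2181 genes of that table have 0 counts in all 6 deposited columns, so the table cannot rest on these columns alone.

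The homeodomain genes behaved in 3 ways. DLX3, a distal-less factor of skin, placenta and bone, was detected in p53 KO cells with 48, 17 and 23 counts in replicates 1, 2 and 3. In p53 WT cells it had 1, 0 and 0 counts. These are 0.648, 0.415 and 1.15 CPM in p53 KO libraries and 0.0127, 0 and 0 CPM in p53 WT libraries. The groups did not overlap, and DLX3 stayed low even in p53 KO cells. Summed counts over scaled library size stood in a ratio of 111, with a 95% exact interval of 19.4 to 4440 for counting error alone. The adjusted p by edgeR was 0.00201. DLX3 entered the test only through its counts in p53 KO libraries, so its size is a description of these libraries. The fitted log2 value of 6.5 depends on how a near-zero group is treated: it was 8.05 without p53 WT replicate 1, which holds the only p53 WT count, and 5.46 by limma-voom.

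DLX5, a distal-less factor expressed in early osteoblasts, had 0, 0 and 1 counts in p53 KO replicates 1, 2 and 3, and 8, 0 and 0 counts in p53 WT replicates 1, 2 and 3. All p53 WT counts came from 1 library, the deepest. The ratio of p53 KO over p53 WT was 0.158 with a 95% exact binomial interval of 0.00355 to 1.18, which covers counting error only and not the spread between libraries. No difference was detectable at this depth. DLX6, the neighbour of DLX5 on chromosome 7, had 0 counts in every library.

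MSX2, a homeodomain factor of the cranial sutures that can repress osteoblast genes, had 6.17, 5.13 and 7.57 CPM in p53 KO libraries, against 8.24, 5.83 and 4.07 CPM in p53 WT libraries. The ranges overlapped almost wholly. The log2 fold change was 0.03 (SE 0.27, adjusted p = 0.946 by edgeR), and its 95% interval of -0.54 to 0.61 does not exclude a change of either sign of that size.

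FGFR1 was the most tightly measured member. It had 147, 154 and 155 CPM in p53 KO libraries, against 102, 99.5 and 108 CPM in p53 WT libraries. The lowest p53 KO library stood well above the highest p53 WT library, and the coefficient of variation was 3.02% in p53 KO cells and 4.44% in p53 WT cells. The log2 fold change was 0.56 (SE 0.09, 95% interval 0.36 to 0.76, adjusted p = 0.000442 by edgeR), which is 1.47-fold.

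**Figure D1:**
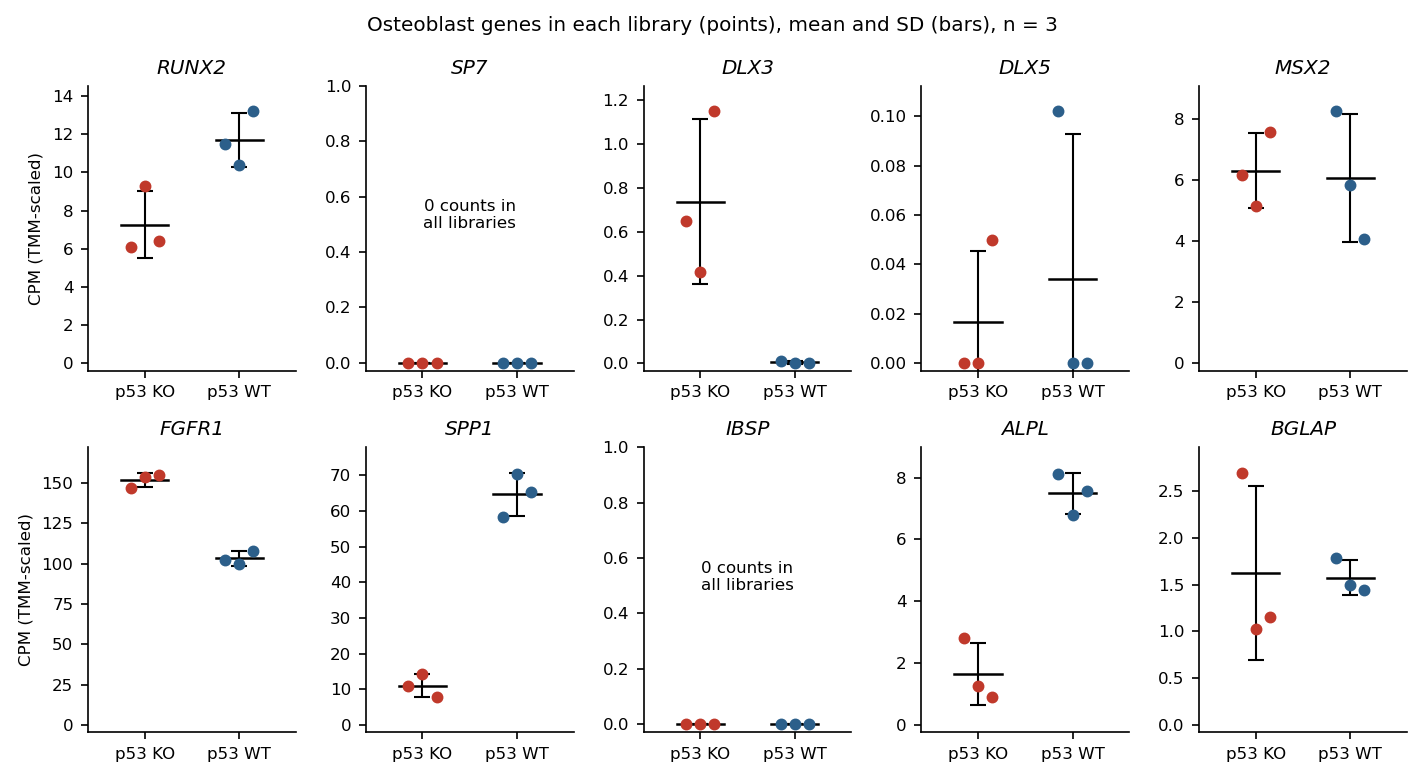
CPM of each of the 10 genes (vertical axes, 1 scale per gene, all from 0) in 3 p53 KO libraries, left, and 3 p53 WT libraries, right; points are libraries, bars the mean and SD. RUNX2, SPP1 and ALPL lie lower in every p53 KO library, FGFR1 and DLX3 higher, and SP7 and IBSP are at 0 throughout.

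Among the matrix and mineral genes, SPP1 (osteopontin), a secreted phosphoprotein that binds integrins and mineral, showed the largest drop of the 7 members tested. It had 10.9, 14.3 and 7.87 CPM in p53 KO libraries, against 58.3, 70.3 and 65.4 CPM in p53 WT libraries. The highest p53 KO library was far below the lowest p53 WT library. The log2 fold change was -2.54 (SE 0.18, 95% interval -2.92 to -2.15, adjusted p = 2.91e-07 by edgeR), so the level was 0.172 times that of p53 WT cells. It stayed between -2.77 and -2.36 when any 1 library was left out.

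SPP1 sits at the end of a cluster of mineral matrix genes on chromosome 4, ordered DSPP, DMP1, IBSP, MEPE and SPP1 in RefSeq. The other members of the cluster, all secreted acidic proteins of bone or tooth, were near the floor. Summed over 3 libraries, DSPP had 7 counts in p53 KO and 0 in p53 WT cells, and DMP1 had 0 in p53 KO and 17 in p53 WT cells. MEPE had 10 counts in p53 KO and 0 in p53 WT cells. Each of these sums came from 1 library (DSPP p53 KO replicate 1, DMP1 p53 WT replicate 1, MEPE p53 KO replicate 2) and is 0 without it. PKD2, which encodes the ion channel polycystin 2 and follows SPP1 on the other side, fell by 1.41 on the log2 scale (adjusted p = 1.79e-05 by edgeR).

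IBSP (bone sialoprotein), a marker of mineralising osteoblasts, had 0 counts in all 6 libraries, with the same floors as SP7. With SP7 and IBSP undetected and DLX5 near the floor, these libraries did not show several of the markers that define committed osteoblasts, and the list is called by its genes rather than by a cell state.

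ALPL, the phosphatase that frees phosphate for mineral, had 2.80, 1.27 and 0.902 CPM in p53 KO replicates 1, 2 and 3, against 8.12, 6.79 and 7.56 CPM in p53 WT libraries. The groups did not overlap, but the p53 KO libraries were spread widely, with a coefficient of variation of 60.7% against 8.90% in p53 WT cells. The log2 fold change was -2.11 (SE 0.35, 95% interval -2.85 to -1.36, adjusted p = 0.000439 by edgeR). Without p53 KO replicate 1, the highest p53 KO library, it was -2.75. The counts behind the p53 KO values were 207, 52 and 18.

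BGLAP (osteocalcin), a late osteoblast product, had 2.70, 1.03 and 1.15 CPM in p53 KO libraries, against 1.79, 1.5 and 1.44 CPM in p53 WT libraries. The p53 WT values lay inside the p53 KO range, and p53 KO replicate 1 was again the highest. The log2 fold change was 0.07 (SE 0.43, 95% interval -0.86 to 0.99, adjusted p = 0.934 by edgeR), and -0.54 without p53 KO replicate 1. In GENCODE 29 the readthrough gene PMF1-BGLAP shares 33.4% of the exonic bases of BGLAP on the same strand. PMF1-BGLAP was far more abundant, at 37.5 ± 4.54 CPM in p53 KO cells and 33.6 ± 2.73 CPM in p53 WT cells (SD, n = 3 each). The source of reads counted to BGLAP is therefore uncertain.

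**Figure D2:**
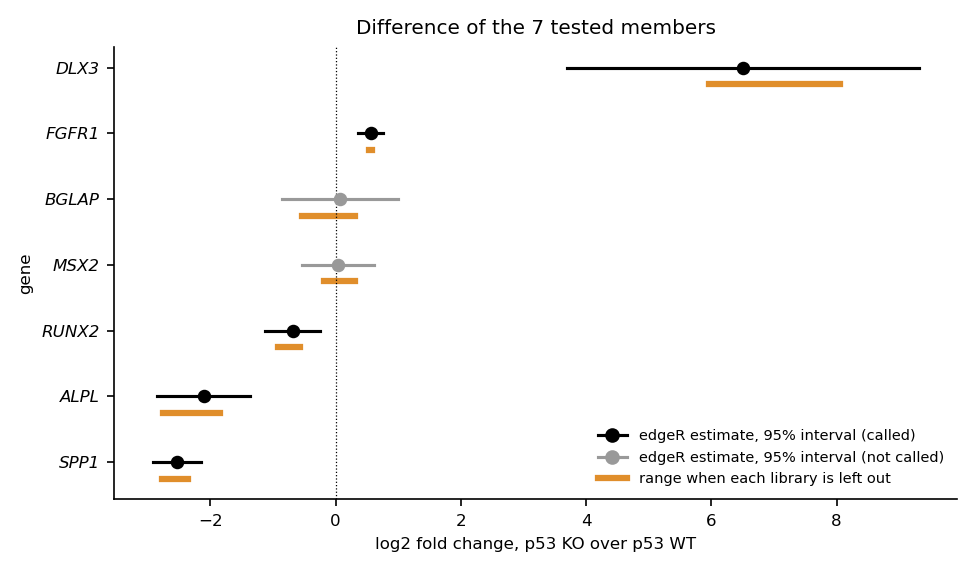
Log2 fold change of p53 KO over p53 WT (horizontal axis) for the 7 tested genes, with 95% intervals from edgeR; orange bars span the values when each library is left out in turn. SPP1, ALPL and RUNX2 lie below 0, FGFR1 and DLX3 above it, and the intervals of MSX2 and BGLAP cross 0.

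To set the members beside each other, CPM was divided by the kilobases of merged exons in GENCODE 29, an annotation other than that of the authors. On that scale the levels in p53 KO cells ran from FGFR1 (10.6 to 11.2 CPM per kb over the libraries) to SPP1 (3.39 to 6.18), MSX2 (2.26 to 3.33), BGLAP (0.862 to 2.27), RUNX2 (0.744 to 1.13), ALPL (0.300 to 0.930) and DLX3 (0.153 to 0.425). From MSX2 down to DLX3, each range overlapped the next. In p53 WT cells SPP1 led (25.1 to 30.3 CPM per kb), followed by FGFR1 (7.18 to 7.82), MSX2 (1.79 to 3.63), ALPL (2.26 to 2.70), RUNX2 (1.27 to 1.62) and BGLAP (1.21 to 1.51). There MSX2 overlapped ALPL, and RUNX2 overlapped BGLAP. FGFR1 thus led in p53 KO cells and SPP1 in p53 WT cells. ALPL overlapped RUNX2 and DLX3 in p53 KO cells and MSX2 in p53 WT cells. In bulk RNA, fewer cells expressing a gene and less RNA per cell cannot be told apart.

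Neighbouring genes were examined to see whether the members moved with their stretch of chromosome. The median log2 fold change of the 50 nearest expressed protein-coding genes was -0.03 around RUNX2, -0.03 around SPP1, 0.12 around ALPL, -0.09 around FGFR1 and 0.12 around DLX3. With this local median taken off, the calls of RUNX2 (-0.66, adjusted p = 0.0373 by edgeR), SPP1 (-2.50), ALPL (-2.22) and FGFR1 (0.65) stayed. That setting called 19.7% of all genes. DLX3, at 6.40, was also called but is not counted, since it passed the filter on low counts only through p53 KO libraries. The number of the 50 neighbours that moved at least as far as the member in its own direction was 0 for SPP1, 1 for ALPL, 1 for FGFR1 and 5 for RUNX2. Counting moves of either sign, it was 0 for SPP1, 2 for ALPL, 4 for FGFR1 and 8 for RUNX2. DLX3 is left out of these counts, because its fold rests on a near-zero p53 WT level. Of its 50 neighbours, 14 were called higher and 5 lower, against 12.1% and 14.4% of all genes tested. The neighbours were limited to protein-coding genes of at least 2 CPM and those shares were not, so the comparison is uneven.

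The tested genes next to RUNX2, ALPL and FGFR1 were not called in the direction of the member, while some next to SPP1 and DLX3 were. Beside RUNX2, CDC5L (0.16), SUPT3H (-0.27) and ENPP5 (0.84) were not called, while ENPP4 was called higher (0.76). Beside SPP1, among tested genes, SPARCL1 (0.44) and ABCG2 (0.60) were not called, and NUDT9 was called lower (-0.41) as was PKD2. Beside ALPL, ECE1 (-0.04), NBPF3 (-0.11) and USP48 (0.21) were not called and RAP1GAP rose (1.34). Beside FGFR1, none of WHSC1L1 (0.17), LETM2 (-0.11), TACC1 (-0.13) and PLEKHA2 (-0.07) was called.

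The DLX3 paralog DLX4, adjacent on chromosome 17, had 5.46, 7.72 and 5.71 CPM in p53 KO libraries, against 1.41, 1.31 and 0.740 CPM in p53 WT libraries. The groups did not overlap, and the log2 fold change was 2.40 (SE 0.31, adjusted p = 5.4e-05 by edgeR). TAC4, on the far side of DLX4, had 2.49 but was not called (adjusted p = 0.0543). Past DLX3, ITGA3 was called lower (-0.37) and PDK2 higher (0.99). DLX1, the other distal-less gene with enough counts, had 0.79 (SE 0.48, adjusted p = 0.269 by edgeR), and DLX2 had 0 counts in all 6 libraries.

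**Figure D3:**
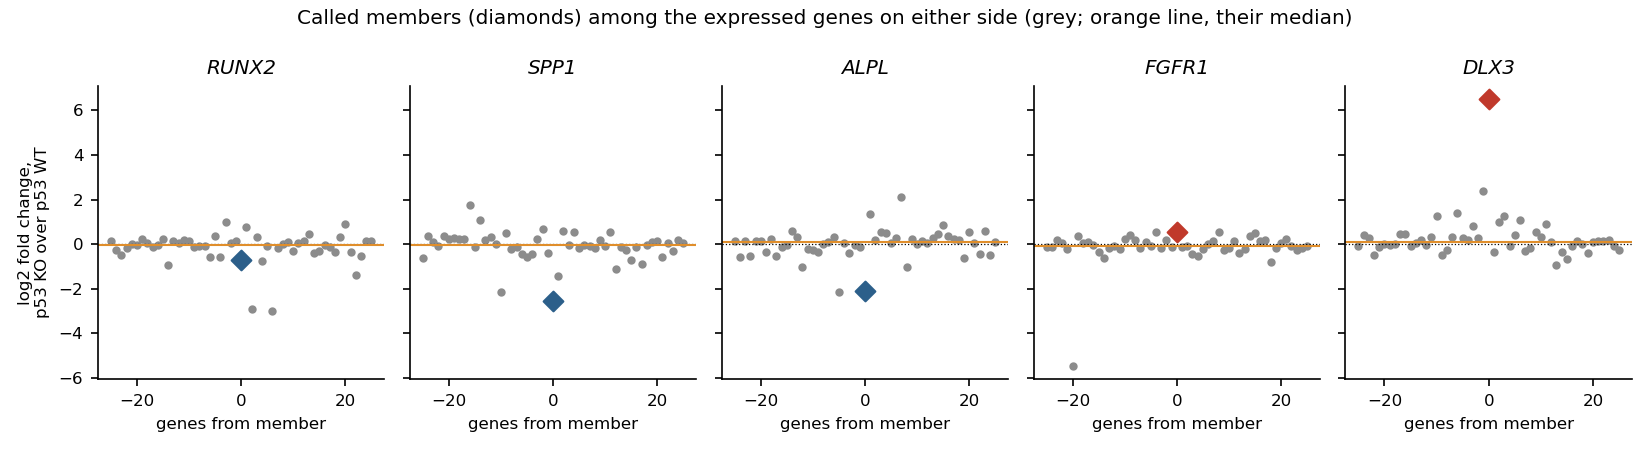
Log2 fold change of p53 KO over p53 WT (vertical axis) of the 5 called members, drawn as diamonds at 0, and of up to 25 expressed protein-coding genes on each side (grey points, horizontal axis in genes from the member); the orange line is their median. The medians lie between -0.09 and 0.12, and DLX4 is the highest grey point beside DLX3.

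The genes around these members were described from lists of the same biology. Over all genes tested, 12.1% were called higher and 14.4% lower, and each list count is to be read beside these shares. No list was tested as a set. Of 16 other skeletal transcription factors 12 were tested, 2 rose and 3 fell, with a median log2 fold change of -0.0035. SNAI2, a zinc-finger repressor of mesenchymal cells, was lower at 5.88 ± 0.371 CPM in p53 KO cells and 22.9 ± 3.07 CPM in p53 WT cells (SD, n = 3 each). PRRX2, a homeodomain factor of limb and craniofacial mesenchyme, was higher at 9.21 ± 0.954 CPM in p53 KO cells and 4.53 ± 0.103 CPM in p53 WT cells (SD, n = 3 each). DLX4 was the other gene that rose. PRRX1, unlike PRRX2, was called lower at -1.17 (adjusted p = 0.0197 by edgeR). With the local median taken off it was -1.2 (adjusted p = 0.0233 by edgeR). ATF4, which serves osteoblasts in amino acid supply, had -0.39 (adjusted p = 0.0108 by edgeR). That call was lost at -0.02 once the local median was taken off, at -0.35 without p53 KO replicate 1 and at -0.33 without p53 WT replicate 1. CBFB, the partner that RUNX2 needs to bind DNA, had 121, 114 and 97.8 CPM in p53 KO libraries, against 93.2, 107 and 82.8 CPM in p53 WT libraries, and was not called (0.23, adjusted p = 0.175 by edgeR). With the local median taken off, described above for the members, CBFB was called lower at -0.42 (adjusted p = 0.0215 by edgeR). RUNX1, on the same list, was also called lower in that setting, at -0.43 (adjusted p = 0.0147 by edgeR). In the main fit RUNX1 was not called, at -0.17 (adjusted p = 0.313 by edgeR).

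For bone morphogenetic proteins (BMPs), which induce RUNX2 and SP7 in progenitors, 15 of 15 listed genes were tested, 0 rose and 5 fell, with a median of -0.22. All tested genes had 12.1% called higher and 14.4% lower. The list does not hold every BMP gene, and BMP5, left out of it, had a log2 fold change of 0.92. The ligand BMP6 had 2.55, 3.30 and 3.41 CPM in p53 KO libraries, against 15.5, 15.4 and 12.1 CPM in p53 WT libraries, and its log2 fold change was -2.23 (SE 0.21; edgeR adjusted p = 3.29e-06). The groups were far apart. The secreted antagonist NOG fell as well, to 26.6 ± 0.913 CPM in p53 KO cells against 46.4 ± 4.90 CPM in p53 WT cells (SD, n = 3 each). The receptor ACVR1 had -0.56, and its call was lost at -0.47 without p53 WT replicate 2. SMAD4, the shared signal transducer, had -0.82, which shrank to -0.30 relative to its neighbours (edgeR adjusted p = 0.124). With that setting 3 BMP genes were lower and 1 higher.

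Of 16 genes for fibroblast growth factors, their receptors and feedback 15 were tested, 3 rose and 1 fell, with a median of 0.28. Together these calls are near the 26.5% of all tested genes that were called, 12.1% higher and 14.4% lower. FGFRL1, a receptor without a kinase domain, had 63.4, 61.9 and 70.0 CPM in p53 KO libraries, against 32.6, 32.8 and 28.2 CPM in p53 WT libraries, and its log2 fold change was 1.06 (SE 0.11; edgeR adjusted p = 1.22e-05). FGFR2 had -0.56, which shrank to -0.03 relative to its neighbours (edgeR adjusted p = 0.916). FGFR3 and FGFR4 were not called, at 0.51 and 0.23. Of the feedback and target genes, SPRY4, an inhibitor of receptor signalling, had 1.3 on the log2 scale. Its call was lost at 1.12 and 0.97 without p53 KO replicate 1 and p53 WT replicate 3. The transcription factor ETV4 had 0.31 and was not called after the local median was taken off (0.21), nor, at 0.30, 0.31, 0.31 and 0.30, without p53 KO replicate 1 or p53 WT replicates 1, 2 and 3.

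Of 18 other genes of bone matrix and mineralisation 14 were tested, 2 rose and 4 fell, with a median of -0.28. For these and the remodelling signals below, the shares over all tested genes were 12.1% called higher and 14.4% lower. SLC20A1, a phosphate importer, had 250, 202 and 181 CPM in p53 KO libraries, against 424, 386 and 341 CPM in p53 WT libraries, with no overlap. FAM20C, the kinase that phosphorylates SPP1 and other secreted proteins, had 15.5 ± 3.22 CPM in p53 KO cells and 28.2 ± 1.11 CPM in p53 WT cells (SD, n = 3 each). ANKH, a membrane protein that raises extracellular pyrophosphate, rose to 79.3 ± 2.21 CPM in p53 KO cells against 59.8 ± 2.48 CPM in p53 WT cells (SD, n = 3 each). COL1A1, the main chain of bone collagen, rose by 0.43 on the log2 scale (SE 0.09), while its partner chain COL1A2 was under 1 CPM in every library. Besides SLC20A1 and FAM20C, the genes that fell were ENPP1 (-0.64, adjusted p = 0.0133 by edgeR) and SPARC (-0.45, adjusted p = 0.00723 by edgeR). Both calls stayed with the local median taken off. Among 9 bone remodelling signals 6 were tested, 0 rose and 2 fell, with a median of -0.12. These were CSF1, the macrophage growth factor that supports osteoclasts (-0.96), and SEMA3A, a semaphorin (-0.96). The call of SEMA3A was lost at -0.76, -0.80 and -0.78 without p53 KO replicate 2, p53 KO replicate 3 and p53 WT replicate 2.

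**Figure D4:**
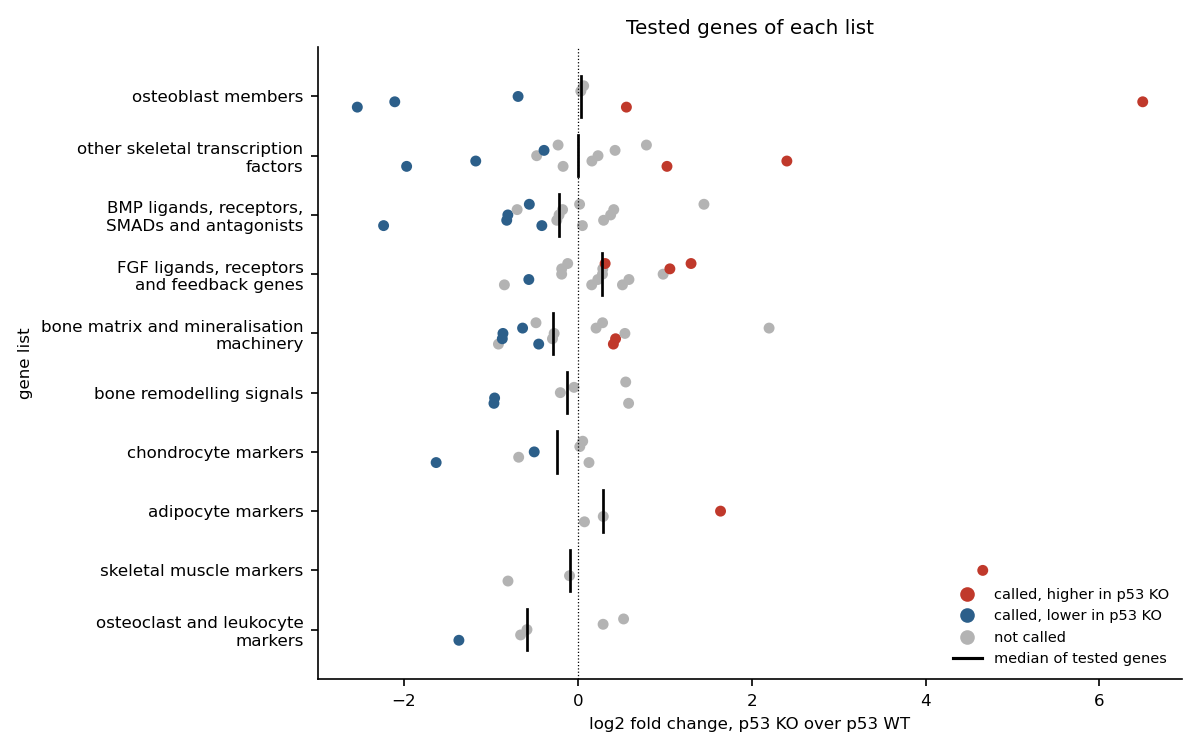
Log2 fold change of p53 KO over p53 WT (horizontal axis) for each tested gene of the 10 lists (rows); red points were called higher and blue points lower in p53 KO, grey points were not called, and black bars are list medians. The BMP row has 5 blue and 0 red points, and list medians lie between -0.59 and 0.29.

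Markers of other lineages were counted as well, again beside 12.1% of all tested genes called higher and 14.4% lower. Of 10 chondrocyte markers 6 were tested and 2 fell. They were SOX9 (-0.50) and SOX5 (-1.63), neither of which was called after the local median was taken off, and SOX5 was also not called without p53 WT replicate 2 (-1.53). The summed chondrocyte level was 53.2 to 62.6 CPM in p53 KO libraries and 69.6 to 77.2 CPM in p53 WT libraries. Of 7 adipocyte markers 3 were tested and 1 rose, LPL (1.64), with FABP4 and LEP at 0 counts and a summed level of 34.7 to 40.0 CPM in p53 KO and 26.2 to 29.9 CPM in p53 WT libraries. Of 7 muscle markers 3 were tested and 1 was called higher, DES, with 2.32, 2.73 and 2.66 CPM in p53 KO libraries, against 0, 0.238 and 0.0411 CPM in p53 WT libraries. DES passed the filter on low counts only through p53 KO libraries, and its size is a description. Its fitted log2 value of 4.66 was 3.94 and 7.61 without p53 WT replicates 1 and 2, MYF5 and MYOG had 0 counts, and the muscle sum was 5.66 to 8.52 CPM in p53 KO and 3.53 to 5.43 CPM in p53 WT libraries. Of 8 osteoclast and leukocyte markers 5 were tested and 1 fell, CD68 (-1.37), with a summed level of 6.22 to 8.79 CPM in p53 KO and 15.3 to 16.5 CPM in p53 WT libraries. PTPRC, the defining leukocyte antigen, was at 1.08 to 1.1 CPM in p53 KO and 1.27 to 2.21 CPM in p53 WT libraries. Their part in the results for the osteoblast genes was not tested.

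The authors' deposited table gives its log2 fold changes as p53 WT over p53 KO, read from the sign of CDKN1A (3.54). In the authors' deposited table the values were 2.52 for SPP1, 2.12 for ALPL, 0.67 for RUNX2, -0.58 for FGFR1 and -6.74 for DLX3. SPP1, ALPL, RUNX2 and FGFR1 passed its adjusted p of 0.05, which 20.8% of its genes with an adjusted p did. RUNX2 came nearest to the limit (adjusted p = 0.0428 in the authors' deposited table). DLX3 also passed (adjusted p = 0.00459 in the authors' deposited table), but is not counted, given its near-zero p53 WT level. MSX2 and BGLAP did not pass in the authors' deposited table (adjusted p = 0.926 and 0.96).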

How the data were processed

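RNA-seq counts were used from 3 p53 KO and 3 p53 WT libraries. The count table holds whole-number read counts per gene as deposited by the authors, with no normalisation. Per the submitters' processing notes, the tools were fastp 0.21.0, HISAT2 2.1.0 and DESeq2 1.3.6 and the build was GRCh37 (hg19). For the counting tool, its annotation and its strand setting, the entry is not given in the sources used here. Overlapping genes on opposite strands may therefore share counts. The authors' deposited table gives a mean of normalised counts (a signal), log2 fold changes with their errors, a test statistic (a score) and p-values, raw and adjusted. It was used as a description only. No per-sample column was left unused.

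Counts were scaled by TMM and filtered by filterByExpr, which left 22352 of 55882 genes. They were tested with edgeR 4.0.16 (robust quasi-likelihood F-test, R 4.3.3) and Benjamini-Hochberg adjustment over all genes tested, with a limit of 0.05. The SE is the log2 fold change divided by the root of F. Intervals on count ratios are exact (Clopper-Pearson, 95%). Library totals of 20393909 to 79767519 set the floors quoted for 0 counts. Replicate libraries differed by more than sampling noise, with a chi-square per degree of freedom of at least 16.7. Alternatives were other scalings and filters, DESeq2 1.42.0, limma-voom (limma 3.58.1), a replicate block, a stricter limit, each library left out, and an offset for the median of the 50 nearest protein-coding genes of at least 2 CPM in RefSeq order. The fit was tested on simulated data. Exon lengths and overlaps come from GENCODE 29 (GRCh38).

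The members and lists were chosen with earlier results of these data known. Named genes are all members, CDKN1A and MDM2, up to 4 called genes per list with the smallest adjusted p, and 2 tested neighbours on each side of a called member. CBFB, RUNX1, PRRX1, DLX1, DLX2, DLX6, BMP5, COL1A2, ENPP1, SPARC, FGFR3, FGFR4, the SPP1 cluster genes and PMF1-BGLAP were named after their values were seen. A further check of the knockout is not reported here.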

Additional observations from a re-analysis of the deposited data

How the results depend on the processing

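The calls of SPP1, ALPL and FGFR1 stayed under all 16 alternatives. DLX3 passed the filter on low counts only through p53 KO libraries, so its calls under other settings are not counted here. The filter of 1 CPM in 3 libraries dropped it and left 1 member called higher. RUNX2 ranged from -0.91 to -0.56 with 1 library left out, its call being lost in 3 of those fits, and at the limit of 0.01 (-0.69, adjusted p = 0.0234 by edgeR). The uncalled members changed sign: BGLAP was -0.069 with the replicate block, -0.085 with the local median taken off and -0.54 to 0.32 with 1 library left out, and MSX2 was -0.081 by limma-voom and -0.18 to 0.32 with 1 library left out. For these the cause was not tested. The same replicate number in both groups did not pair libraries (correlations 0.0171, 0.0343 and -0.0291). The replicate block gave 5159 calls against 5924, with those of SPP1, ALPL, RUNX2 and FGFR1 among them. Over all genes, the limit of 0.01 left 3758 calls, 1659 higher and 2099 lower. The other lists together had 9 of 79 tested genes called higher, against 12.1% of all tested genes, and 7 to 15 with 1 library left out. These 9 include DES, which passed the filter on low counts only through p53 KO libraries, so this count is a description. Called lower were 18 of 79, against 14.4% of all tested genes, and 13 to 17 with 1 library left out. The call of ETV4 was also lost without a filter (0.30) and with the replicate block (0.31). Depth limits SP7, IBSP, DLX5 and the p53 WT level of DLX3, all at or near the floor of 3 counts.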
